A study of Mus musculus with 8 samples.

Results

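The postsynaptic density and spine actin genes examined here were 43 genes of the 29442 in the count table, found by matching a fixed list of gene symbols to the symbols in the table. They comprised 4 MAGUK scaffolds, 4 SAPAP scaffolds, 3 Shank scaffolds, 3 Homer scaffolds, 5 genes for calcium/calmodulin-dependent kinase II (CaMKII) and neurogranin, 11 regulators of spine actin, 6 regulators of small GTPases and 7 synaptic adhesion genes. All 43 were detected, with mean counts per library from 413 for Actn2 to 133117 for Camk2a, and all 43 entered the test.

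RNA was sequenced from hippocampal tissue of 8 female C57BL/6 J mice. The methods give 6 to 8 weeks as the age of the mice used, and tissue was kept after the injections and behavioural tests. According to the methods, the tissue was the ventral hippocampus, and the comparison was meant to find genes that change after treatment with an androgen precursor. Mice in 1 group received dehydroepiandrosterone (DHEA), a steroid that the body can convert to androgens and estrogens, at 30 mg/kg/day by subcutaneous injection for 21 days. The other group received sesame oil, the vehicle, by the same route for the same time, and no genetic change was described for either group. Each group held 4 libraries, HipR3, HipR4, HipR7 and HipR11 for DHEA and HipR5, HipR9, HipR10 and HipR16 for sesame oil, and every list of 4 values below follows this order. Gene counts summed to 35748416 to 38038361 per DHEA library and to 31483772 to 35418297 per sesame oil library. For every gene compared, the study's own table of differentially expressed genes has a fold change of the opposite sign to that given by the deposited labels, so "lower" and "higher" below refer to the libraries labelled DHEA. Which of the labels and that table is right was not determined from the count files. The study describes its qRT-PCR in further hippocampal samples as having the directions of its own table, and those data were not analysed here. If the group labels were exchanged, every direction below would turn. In bulk tissue, fewer neurons and less of an mRNA in each neuron cannot be told apart.

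Most excitatory synapses of the hippocampus sit on dendritic spines, small protrusions whose shape is held by filaments of actin. Beneath the spine membrane lies the postsynaptic density, a protein mesh in which MAGUK proteins bind glutamate receptors and adhesion molecules, SAPAP proteins link the MAGUK proteins to Shank proteins, and Homer proteins tie Shank to receptors and calcium stores. CaMKII is the abundant kinase of this mesh that decodes calcium entry, and actin-binding proteins such as drebrin set the form and stability of the spine.

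Lower in the libraries labelled DHEA, without overlap between groups and with an unadjusted p under 0.05 in all 19 alternative analyses, were Dbn1 (drebrin, which binds and stabilizes actin filaments in spines), Shank2, Baiap2 (the curved-membrane protein IRSp53), Synpo (synaptopodin, of the spine apparatus) and Nlgn3 (neuroligin 3). Their mean levels were 79.0% to 85.5% of those in the sesame oil libraries. Of the abundant core of the postsynaptic density, Dlg4, Camk2a, Camk2b and Nrgn had means at 96.5% to 102% of those in sesame oil and did not pass the test. Without HipR3 and HipR4 together, a fit added after seeing the data, Dlg4 and Nrgn passed as lower, at log2 fold changes of −0.12 and −0.14. Across the 43 genes, 8 were lower and 0 were higher at an unadjusted p under 0.05 by edgeR's quasi-likelihood test, and 35 did not pass. This was 18.6% of the genes, beside 9.31% of all 27612 genes tested and 15.7% of the 12780 abundant genes, those with a mean count of 100 or more, a range that holds all 43 but reaches below the rarest of them. In the same direction, 4.49% of all genes and 7.60% of the abundant genes were called lower, and 4.82% and 8.08% were called higher. No gene of the whole table, and so none of the 43, passed a Benjamini-Hochberg adjusted p under 0.05 by edgeR, where the lowest value was 0.0569 and 2571 genes had an unadjusted p under 0.05. DESeq2 called 153 genes at that adjusted threshold, including 5 of the 43 (Shank2, Dbn1, Synpo, Baiap2 and Nlgn3). None of the 43 reached the 2-fold threshold used in the study, which 442 genes (1.6%) did.

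The fold changes of the 43 genes were small and centred near 0. Their median log2 fold change was −0.02, beside 0.01 over all genes tested, and they ranged from −0.34 for Dbn1 to 0.14 for Homer2. There were 17 genes with a positive and 26 with a negative value. The groups did not overlap for 6 genes, all lower in DHEA, where 5.04% of all genes and 8.46% of abundant genes had groups that did not overlap in either direction and 2.62% and 4.23% had them lower.

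**Figure D1:**
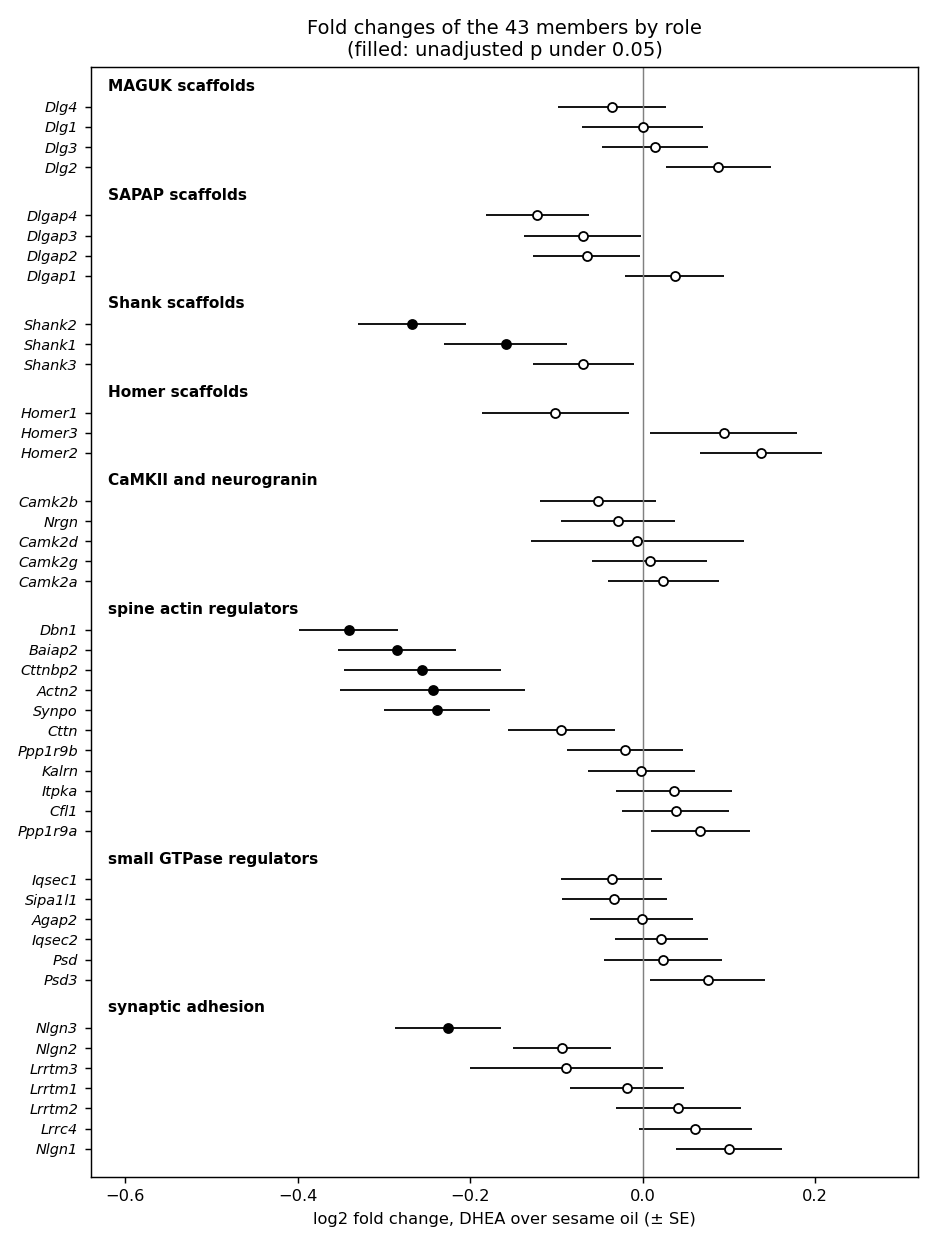
Log2 fold change (DHEA over sesame oil, horizontal axis) of each of the 43 genes, grouped by role, with bars of 1 standard error and filled circles for an unadjusted p under 0.05. The 8 filled circles lie between −0.34 and −0.16, and 5 of them are regulators of spine actin.

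Per unit of gene length, in FPKM over all 8 libraries, levels ran from 670 ± 24.2 (SD, n = 8) for Camk2a, the alpha subunit of CaMKII, down to 2.58 ± 0.12 for Lrrtm1, a leucine-rich adhesion protein. Nrgn, whose product neurogranin holds calmodulin near the membrane, followed at 615 ± 30.5 FPKM and Cfl1, cofilin 1, which severs actin filaments, at 487 ± 17.9 FPKM. Below these came Ppp1r9b (spinophilin) at 254, Camk2b at 183, Agap2 at 139 and Dlg4 at 103 FPKM, so that members of several roles shared the upper end. Dbn1 ranked 8 of 43 at 75.9 ± 10.8 FPKM, while Actn2, actinin 2, ranked 42 at 3.98 ± 0.51 FPKM. These levels rest on the single length per gene that the authors used, which was 77.2 kb for Kalrn and 1.18 kb for Cfl1, so a gene with a long annotated transcript set has a low FPKM for its count.

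The regulators of spine actin held most of the lower genes, with 5 of 11 lower, 0 higher and a median log2 fold change of −0.09. Beside this, 4.49% of all genes and 7.60% of abundant genes were called lower. Of the 5, Cttnbp2 and Actn2 did not pass in all alternatives, as given below. Whether this role differed from the others was not tested. Dbn1 was measured at 199, 199, 219 and 216 normalized CPM (counts scaled to a common library total with edgeR's TMM factors) in DHEA and at 267, 257, 268 and 264 CPM in sesame oil. Every DHEA library was below every sesame oil library, and the 4 sesame oil values lay close together (264 ± 4.69, SD, n = 4). The log2 fold change was −0.34 ± 0.06 (SE; edgeR unadjusted p = 1.29e-05, adjusted p = 0.0647), which ranked Dbn1 4 among all genes by p. Over 19 alternatives it stayed between −0.37 and −0.29, and its adjusted p between 6.53e-06 (DESeq2) and 0.336.

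Baiap2 encodes an adaptor that couples small GTPases to actin and binds PSD-95 and Shank. Its CPM were 166, 154, 167 and 195 in DHEA and 216, 202, 207 and 206 in sesame oil, with a log2 fold change of −0.28 ± 0.07 (edgeR adjusted p = 0.240). The highest DHEA library, HipR11, stood close to the lowest sesame oil library, but the groups did not overlap. Synpo was at 140, 130, 129 and 145 CPM in DHEA and 168, 154, 156 and 164 CPM in sesame oil, again without overlap (log2 fold change −0.24 ± 0.06, edgeR adjusted p = 0.245). Synaptopodin marks the spine apparatus, a stack of endoplasmic reticulum found in mature spines.

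Cttnbp2, which binds cortactin and helps maintain spines, was at 149, 158, 207 and 204 CPM in DHEA and 223, 215, 220 and 200 CPM in sesame oil. HipR3 and HipR4 were low, and the other 2 DHEA libraries lay among the sesame oil values. The log2 fold change of −0.26 ± 0.09 (edgeR unadjusted p = 0.0117, adjusted p = 0.387) moved to −0.07 without these 2 libraries, with an unadjusted p of 0.241. Actn2, which crosslinks actin and binds NMDA receptors, was rare, at 10.4, 11.1, 11.1 and 10.8 CPM in DHEA and 12.6, 14.6, 12.6 and 11.6 CPM in sesame oil. The groups of Actn2 did not overlap (log2 fold change −0.24 ± 0.11, edgeR unadjusted p = 0.0358, adjusted p = 0.503), and it had an unadjusted p under 0.05 in 12 of 19 alternatives. The call for Actn2 was lost without any 1 of HipR3, HipR5, HipR9, HipR10 and HipR11, where the log2 fold changes were −0.23, −0.25, −0.18, −0.25 and −0.24.

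The other 6 actin regulators did not pass the test. Cfl1 was at 624, 617, 562 and 537 CPM in DHEA and 578, 564, 575 and 562 CPM in sesame oil, with the DHEA libraries on both sides of the narrow sesame oil range (log2 fold change 0.04 ± 0.06, edgeR unadjusted p = 0.548). Cttn, cortactin, which supports branched actin, had a log2 fold change of −0.09 (−0.14 without HipR16, where it passed, and −0.06 without HipR10) and Ppp1r9b one of −0.02. Ppp1r9a (neurabin), Itpka, a kinase that also bundles actin, and Kalrn (kalirin, an exchange factor for small GTPases) had values of 0.07, 0.04 and −0.00.

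**Figure D2:**
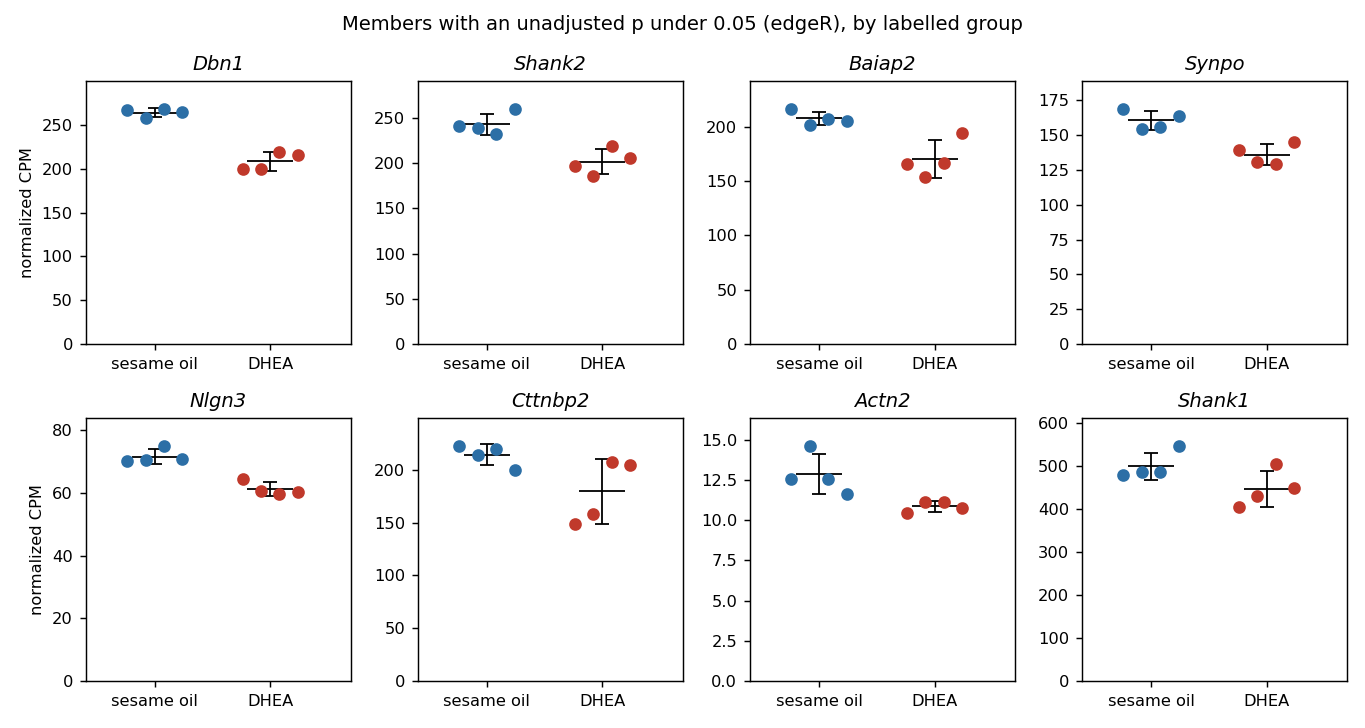
Normalized CPM (vertical axes from 0) of the 8 genes with an unadjusted p under 0.05, with 1 point per library and lines for the mean ± SD of 4 libraries per group. Dbn1, Shank2, Baiap2, Synpo, Nlgn3 and Actn2 have no overlap between groups, while 2 DHEA libraries of Cttnbp2 lie among the sesame oil libraries.

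The 250 bases before the RefSeq start (GRCm38.p6) of Dbn1 (chr13:55488077-55488326, minus strand) and of Baiap2 (chr11:119942842-119943091, plus strand) are shown as the promoters of the pair of lower actin regulators with the largest fold changes. Sequences run 5′ to 3′ on the strand of the gene, with the GC box GGGCGG, the letters bound by Sp1-type factors, or its reverse complement in capitals.
Dbn1: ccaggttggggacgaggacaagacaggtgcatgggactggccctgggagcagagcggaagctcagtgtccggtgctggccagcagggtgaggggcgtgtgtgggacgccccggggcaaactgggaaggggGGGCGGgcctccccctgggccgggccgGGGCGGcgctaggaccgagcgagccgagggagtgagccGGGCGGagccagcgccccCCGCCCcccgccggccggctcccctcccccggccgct
Baiap2: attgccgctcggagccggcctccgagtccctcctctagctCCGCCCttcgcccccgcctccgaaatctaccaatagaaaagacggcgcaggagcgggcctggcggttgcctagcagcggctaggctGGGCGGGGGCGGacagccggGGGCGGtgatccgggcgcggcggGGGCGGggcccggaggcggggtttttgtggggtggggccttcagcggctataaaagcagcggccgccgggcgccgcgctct
Both stretches are rich in G and C (77.2% for Dbn1 and 72.8% for Baiap2), and they hold 4 and 5 GC boxes. RefSeq promoters, taken as 250 bases before to 50 after a start, were matched for 33 of the 43 genes, with 50 starts. The GC box was present in 26 of the 50 (52.0%), beside 35.7% of all 32851 promoters in the table, both strands searched. The median GC content was 59.3% for these promoters and 52.7% for all. The single site AGAACA of the androgen and glucocorticoid receptors was found in 5 (10%), those of Dlg1, Dlg3, Homer1, Kalrn and Nlgn2, beside 19% of all promoters. The paired androgen response element, AGAACA and TGTTCT 3 bases apart, and the cyclic AMP response element TGACGTCA were found in 0 of the 50, beside 0.00913% and 1.79% of all promoters, and the CArG box of serum response factor was likewise found in 0, beside 1.63%. These counts describe letters in the windows, and the single site is contained in the paired element.

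Among the scaffolds, Shank genes encode the large proteins at the base of the postsynaptic density. Shank2 was at 196, 186, 218 and 206 CPM in DHEA and 241, 239, 232 and 259 CPM in sesame oil, so that no DHEA library reached the sesame oil range. Its log2 fold change was −0.27 ± 0.06 (edgeR unadjusted p = 0.000489, adjusted p = 0.240), and the fold changes over the 19 alternatives ran from −0.31 to −0.20. Shank1 was at 405, 429, 504 and 449 CPM in DHEA and 479, 485, 485 and 546 CPM in sesame oil. Here HipR7 overlapped the sesame oil group (log2 fold change −0.16 ± 0.07, edgeR unadjusted p = 0.0393, adjusted p = 0.515). Without HipR3 and HipR4 together the value for Shank1 was −0.07 with an unadjusted p of 0.277. The call was also lost without HipR3, HipR4, HipR11 or HipR16 alone, at −0.11, −0.15, −0.16 and −0.12. Shank3 was at 200, 224, 220 and 201 CPM in DHEA and 222, 220, 217 and 226 CPM in sesame oil and did not pass (log2 fold change −0.07 ± 0.06, edgeR unadjusted p = 0.257). Whether the Shank genes differed from each other in response was not tested.

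No MAGUK, SAPAP or Homer gene passed the test. Dlg4, which encodes PSD-95, the main MAGUK of mature excitatory synapses, was at 693, 725, 663 and 612 CPM in DHEA and 672, 704, 690 and 695 CPM in sesame oil. The DHEA libraries spread around the sesame oil values (log2 fold change −0.04 ± 0.06, edgeR unadjusted p = 0.580). Without HipR3 and HipR4 together Dlg4 passed as lower, at −0.12 (edgeR unadjusted p = 0.0265). Dlg1, Dlg2 and Dlg3 (SAP97, PSD-93 and SAP102) had log2 fold changes of 0.00, 0.09 and 0.01. Of the SAPAP genes, Dlgap4 came nearest, with 216, 207, 210 and 202 CPM in DHEA and 233, 220, 213 and 243 CPM in sesame oil. These groups overlapped at HipR3 and HipR10 (log2 fold change −0.12 ± 0.06, edgeR unadjusted p = 0.0547), and Dlgap4 had an unadjusted p under 0.05 in 10 of 19 alternatives, including those without HipR3 (−0.14) and without HipR10 (−0.15).

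Homer1, the source of both the crosslinking long Homer proteins and a short activity-induced form, was at 183, 162, 161 and 160 CPM in DHEA and 186, 154, 163 and 212 CPM in sesame oil. Its values were widest in sesame oil, where HipR16 was highest and HipR9 lowest (log2 fold change −0.10 ± 0.09, edgeR unadjusted p = 0.251; −0.02 without HipR16). Counts per gene do not separate the long and short forms of Homer1. Homer2 and Homer3 had the most positive values among the scaffolds (log2 fold changes 0.14 and 0.09), with unadjusted p of 0.0693 and 0.285 by edgeR. Homer2 passed as higher without HipR9 (0.18) and without HipR11 (0.18), but stood at 0.07 without HipR4. The value for Homer3 was 0.02 without HipR16 and −0.00 without HipR3 and HipR4 together.

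The CaMKII and neurogranin genes, which included the most abundant of the 43, had 0 of 5 called, and the group means differed by less than the SD between libraries for those given here. Camk2a was at 3768, 4067, 3696 and 3829 CPM in DHEA and 3575, 3823, 3976 and 3732 CPM in sesame oil (log2 fold change 0.02 ± 0.06, edgeR unadjusted p = 0.713). Camk2b, the beta subunit, which also binds actin, was at 1027, 1034, 976 and 1097 CPM in DHEA and 1054, 1118, 1147 and 966 CPM in sesame oil. For both subunits the 2 groups covered nearly the same range, and Camk2b had a log2 fold change of −0.05 ± 0.07 (edgeR unadjusted p = 0.451). The FPKM ratio of Camk2a to Camk2b was 3.75 ± 0.19 (SD, n = 4) in DHEA and 3.57 ± 0.22 in sesame oil (exact permutation test, two-sided, p = 0.257, 0.386 adjusted over 3 ratios). Nrgn was at 865, 820, 740 and 727 CPM in DHEA and 792, 786, 797 and 840 CPM in sesame oil (log2 fold change −0.03 ± 0.07, edgeR unadjusted p = 0.672). In DHEA the Nrgn values fell into a high pair, HipR3 and HipR4, and a low pair, HipR7 and HipR11. Without the high pair Nrgn passed as lower, at −0.14. Camk2d, the delta subunit, varied most of the 43 genes over the 8 libraries (coefficient of variation 17.1%, from 50.6 to 79.3 CPM), with high and low libraries in both groups.

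The 6 regulators of small GTPases, which switch Arf and Rap proteins in spines, had 0 called and log2 fold changes from −0.04 to 0.08. Iqsec2, an Arf exchange factor of the postsynaptic density, had the smallest coefficient of variation of the 43 genes, 1.74%, with 176 to 186 CPM in all libraries. Agap2 (an Arf-directed GTPase-activating protein), Psd, Psd3 and Iqsec1 (Arf6 exchange factors) and Sipa1l1 (SPAR, a Rap-directed GTPase-activating protein) likewise did not pass.

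Of the 7 adhesion genes, which reach across the synaptic cleft to presynaptic partners, 1 was lower. Nlgn3, found at excitatory and inhibitory synapses, was at 64.3, 60.7, 59.5 and 60.2 CPM in DHEA and 70.1, 70.5, 75.0 and 70.6 CPM in sesame oil. No library of either group entered the range of the other (log2 fold change −0.23 ± 0.06, edgeR unadjusted p = 0.00181, adjusted p = 0.271). Nlgn1, the neuroligin of excitatory synapses, was at 126, 128, 123 and 116 CPM in DHEA and 111, 113, 123 and 113 CPM in sesame oil (log2 fold change 0.10 ± 0.06, edgeR unadjusted p = 0.120). Nlgn2, the neuroligin of inhibitory synapses, had a log2 fold change of −0.09 (edgeR unadjusted p = 0.115). The value for Nlgn2 was −0.05 after GC-trend removal, described below, and −0.06 without HipR3 and HipR4 together. Nlgn2 passed as lower in 2 of 19 alternatives, the limma fits, at −0.12 in each (limma unadjusted p = 0.0346 and 0.0384). The FPKM ratio of Nlgn2 to Nlgn1 was 5.58 ± 0.44 in DHEA and 6.38 ± 0.43 in sesame oil (SD, n = 4; two-sided exact permutation test, p = 0.0857, 0.257 adjusted over 3 ratios). Lrrtm1, Lrrtm2, Lrrtm3 and Lrrc4, leucine-rich organizers of excitatory synapses, had log2 fold changes of −0.02, 0.04, −0.09 and 0.06. The value for Lrrtm3 rested on HipR16, without which it was 0.04.

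Library by library, the 43 genes separated the groups along their first principal component, which carried 42.3% of their variance. Scores were 0.64, 0.79, 0.08 and 0.04 in DHEA and −0.46, −0.34, −0.29 and −0.46 in sesame oil. HipR3 and HipR4 stood far from the other 2 DHEA libraries on this axis. The same libraries stood apart on the first component of all 16813 genes with a mean count of 10 or more (33.4% of variance), at 21.8 and 35.6 where the other 6 lay between −12.7 and −3.62. Without both, 9 of the 43 genes were lower and 0 higher at an unadjusted p under 0.05, beside 7.89% of all genes called in either direction in that fit. The share among abundant genes was not computed for that fit. With all libraries it was 15.7%, beside 9.31% of all genes. Of the 9 genes, 5 (Dbn1, Shank2, Baiap2, Synpo and Nlgn3) were among the 8 called with all libraries. The others were Dlgap4, Dlg4, Nrgn and Ppp1r9b, with log2 fold changes of −0.15, −0.12, −0.14 and −0.12 and edgeR unadjusted p of 0.0252, 0.0265, 0.0111 and 0.0138. The summed level of the 43 genes was 17047, 17655, 16671 and 16664 CPM in DHEA and 16891, 17182, 17442 and 17358 CPM in sesame oil, with overlapping groups, and this sum is weighted towards Camk2a and other abundant genes. The mean of log2(CPM + 0.5), which weights the 43 genes equally, was 7.783, 7.807, 7.775 and 7.746 in DHEA and 7.811, 7.816, 7.821 and 7.856 in sesame oil, where every DHEA library was lower by a narrow margin.

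**Figure D3:**
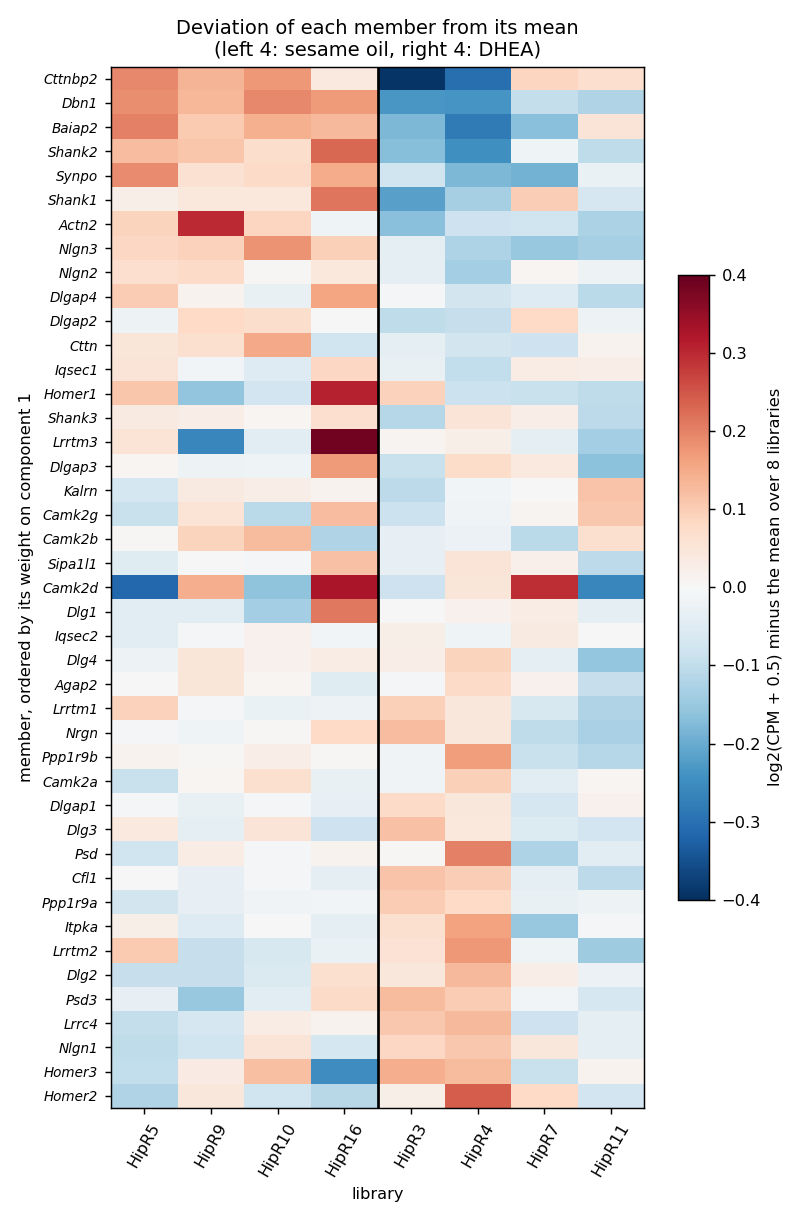
Deviation of each of the 43 genes (vertical axis) from its own mean on the log2(CPM + 0.5) scale in each library (horizontal axis), ordered by weight on the first component of these genes. Dbn1, Baiap2, Shank2, Synpo and Nlgn3 are below their mean in DHEA in all or nearly all libraries, while Cttnbp2 is far below in HipR3 and HipR4 alone.

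Other genes of the same machinery were counted from a list of 103 further postsynaptic, actin and signalling genes. Of these, 8 were higher and 9 lower at an unadjusted p under 0.05 (16.5%), a share near the 15.7% of all abundant genes called in either direction, with a median log2 fold change of 0.01. The counts within this list are therefore given as a description. Without both HipR3 and HipR4, 1 of the 103 genes was called higher and 13 were called lower, beside 7.89% of all genes called in either direction. Shares by direction and among abundant genes were not computed for that fit, so these counts too are a description. Cdc42, for example, was at 356 and 378 CPM in HipR3 and HipR4, at 307 and 306 CPM in HipR7 and HipR11 and at 303 to 305 CPM in sesame oil, and Capza2 and Dstn were likewise highest in HipR3 and HipR4. The 19 other regulators of small GTPases had 5 lower and 1 higher, Cdc42. Those lower included Trio, Sipa1l3, Arhgap33 and Arhgef2, exchange factors and GTPase-activating proteins, with log2 fold changes of −0.16, −0.16, −0.21 and −0.15.

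Among the 33 other actin genes, 3 were higher (Cfl2, Capza2 and Dstn) and 2 lower (Limk1 and Actn1). Cfl2, the second cofilin, was at 86.4, 88.8, 78.9 and 78.5 CPM in DHEA and 75.8, 68.2, 76.6 and 71.4 CPM in sesame oil, without overlap (log2 fold change 0.19 ± 0.07, edgeR adjusted p = 0.385). The 17 other calmodulin, kinase and phosphatase genes had Ppp3r1 (calcineurin B) and Camk2n1 (a CaMKII inhibitor) higher, at 0.19 and 0.25. The 19 other adhesion genes had Lrrtm4 and Lrrc4c higher, at 0.24 and 0.25, and 0 lower. The 15 other scaffolds had 1 lower, Lzts3, at −0.15.

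Markers of some other cells moved with the groups. All 8 oligodendrocyte genes were higher in DHEA at an unadjusted p under 0.05 (median log2 fold change 0.40), and their summed level was 6679, 8429, 6608 and 6945 CPM in DHEA and 5338, 6403, 5305 and 4502 CPM in sesame oil, with Mbp (myelin basic protein) the most abundant. These sums did not overlap. An exact permutation test (two-sided) gave p = 0.0286, the lowest value that 8 libraries in groups of 4 allow, or 0.119 adjusted over 25 library measures. Of 8 astrocyte genes, 5 were higher and 0 lower, with Slc1a2 the most abundant and sums of 6087 to 7264 CPM in DHEA and 5358 to 6183 CPM in sesame oil. The microglia, endothelium and oligodendrocyte precursor lists had 3 of 7, 3 of 6 and 1 of 5 genes higher and 0 lower, and the summed level of each list overlapped between groups. Among abundant genes, 8.08% were called higher and 7.60% lower. Thalamus markers had 1 of 7 higher, while choroid plexus and neocortex markers had 0 of 7 and 0 of 6 called. Choroid plexus genes, led by Ttr, ranged from 96.0 CPM in HipR4 to 4513 CPM in HipR3, both DHEA libraries.

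Of 10 genes found in all neurons, 0 were higher and 2 lower, Rbfox3 (NeuN) at −0.16 and Nefm (a neurofilament subunit) at −0.18, and the list had a median of −0.02. Its summed level, led by Snap25, was 6597, 6380, 6056 and 5927 CPM in DHEA and 6338, 6046, 6168 and 6649 CPM in sesame oil (exact permutation test, two-sided, p = 0.800), so the groups covered the same range. The 10 markers of hippocampal excitatory neurons, led by Slc17a7, had 1 higher (Spink8). Their summed level was 2260, 2215, 2142 and 2240 CPM in DHEA and 2305, 2314, 2498 and 2227 CPM in sesame oil, where the groups overlapped with a lower mean in DHEA (2214 ± 51.7 beside 2336 ± 115, SD, n = 4; exact permutation test, two-sided, p = 0.0857, 0.179 adjusted over the 25 measures). Of the 7 markers of inhibitory neurons, led by Gad1, 0 were called. No neuronal or hippocampal marker was at 0 counts in any library, but this held for the choroid plexus, thalamus and neocortex markers too, so it does not tell the tissues apart. The part of the glial difference in the lower values of Dbn1, Shank2, Baiap2, Synpo and Nlgn3 was not tested.

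**Figure D4:**
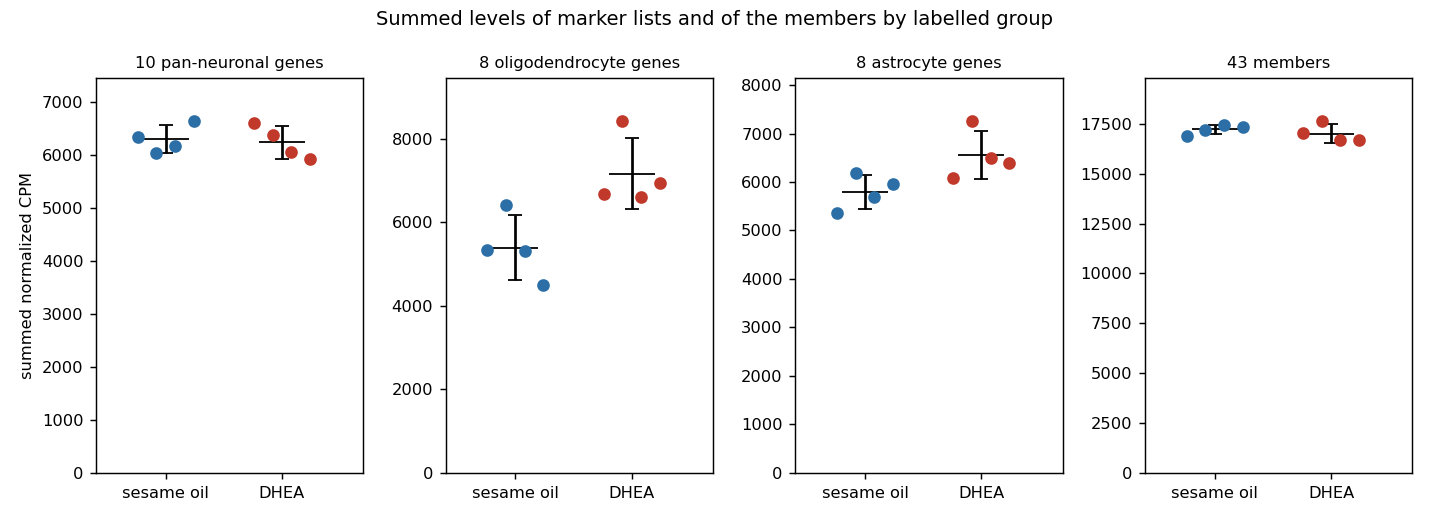
Summed normalized CPM (vertical axes from 0) of 10 pan-neuronal, 8 oligodendrocyte and 8 astrocyte genes and of the 43 postsynaptic genes, with 1 point per library and the mean ± SD of 4 libraries per group. Only the oligodendrocyte sums separate the groups, from 6608 CPM upward in DHEA and up to 6403 CPM in sesame oil.

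Base composition also moved with the groups. The slope of each library's deviations on the GC content of the gene was negative in all DHEA libraries (−0.05 to −0.00 log2 units per 10 percentage points) and positive in all sesame oil libraries (0.02 to 0.04; two-sided exact permutation test, p = 0.0286, 0.119 adjusted over the 25 measures). The 43 genes were richer in GC (median 53.1%) than abundant genes (49.7%), and the 8 called lower had a median of 56.4%. Across the 43 genes, which share these libraries, Pearson's r of fold change with GC content was −0.30 and Spearman's rho −0.34, beside a Pearson's r of −0.23 over 12448 abundant genes.

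After each library's trend with GC content was removed, 7 of the 43 genes were lower and 0 higher at an unadjusted p under 0.05, beside 8.60% of all genes and 14.3% of abundant genes in either direction. Of these 7, 6 were called before. Dbn1 stood at −0.30, Shank2 at −0.24, Baiap2 at −0.25, Synpo at −0.20, Nlgn3 at −0.23 and Cttnbp2 at −0.27. Shank1 (−0.11) and Actn2 (−0.22) no longer passed, and Homer1, the most AT-rich of the 43 genes at 36.9% GC, passed at −0.19. Mitochondrially encoded genes took 7.29% to 9.34% of counts in DHEA and 6.37% to 7.23% in sesame oil, again without overlap, and leaving them out kept all 8 calls.

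**Figure D5:**
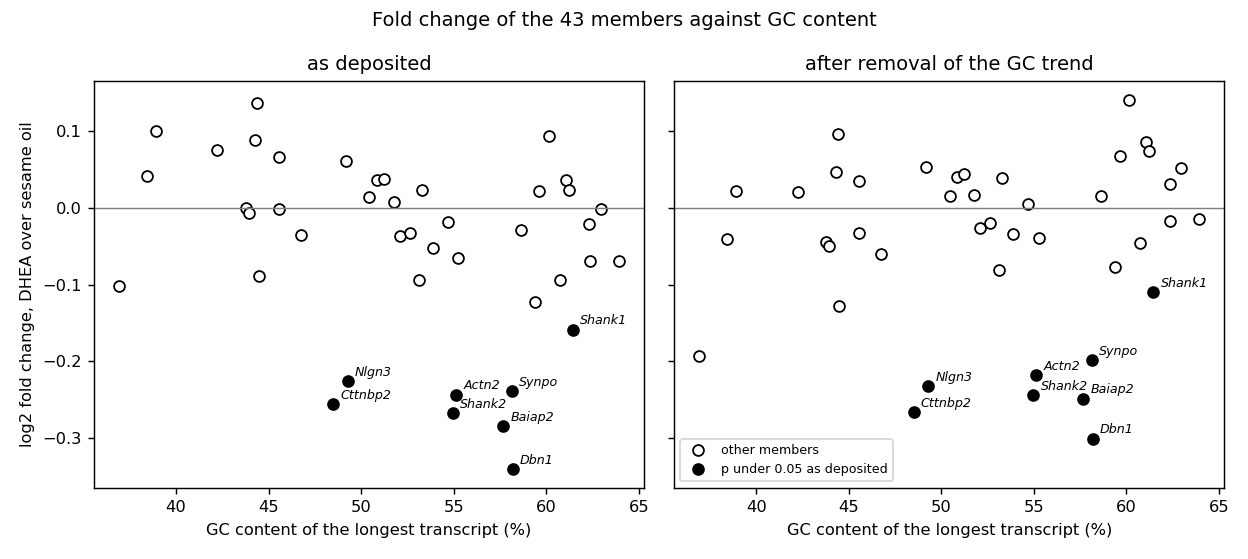
Log2 fold change (DHEA over sesame oil) of the 43 genes against the GC content of the longest transcript (%), as deposited on the left and after removal of each library's GC trend on the right, with filled circles for the 8 genes called as deposited. Dbn1 remains lowest in both panels, at −0.34 and −0.30.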

How the data were processed

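The authors sequenced polyA-selected RNA from hippocampal tissue as paired-end reads, trimmed it with fastp, aligned it with HISAT2 and counted reads per gene with HTSeq. GRCm39 is the build named in the submitters' processing notes. Versions, annotation and strand setting are not given in the sources used here, so reads of overlapping antisense genes may be mixed. The deposited counts are raw whole reads per gene, and the deposited FPKM values are these counts per counted read and per base of 1 length per gene, scaled by a constant.

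Counts were analysed in R 4.3.3 with edgeR 4.0.16, using TMM normalization and the quasi-likelihood test (DHEA against sesame oil, no covariate) on 27612 genes with at least 1 count, and p-values were adjusted by Benjamini-Hochberg over all of them. Members and lists were chosen with earlier results of these data known. Genes named with full values were Dlg4, Shank3, Homer1, Camk2a, Camk2b, Nrgn, Dbn1, Cfl1 and Nlgn1 and the 8 further members with the smallest p; the others were named after their values were seen. Some genes of the lists are counted but not reported by name here. Single measures were compared by two-sided exact permutation over 70 allocations. The methods describe control mice as littermates of treated ones and group housing, but no label ties a library to a litter or cage, so the fit ignores both and p-values measure the spread between these samples. No pair of libraries of a group was as close as sampling noise (chi-square per degree of freedom 7.82 to 57.3). A count of 3 corresponds to 0.0789 to 0.0953 CPM, for counting error only.

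GC content was that of the longest transcript of each symbol in GENCODE vM21 (GRCm38), found for all 43 members and for 92.7% of genes averaging 10 or more counts, and trends were removed as lowess offsets (span 0.3). Alternatives were RLE normalization, DESeq2 1.42.0, filterByExpr, a minimum of 10 counts, robust moderation, limma 3.58.1 on log2(FPKM + 1) and log2(FPKM + 0.1), GC-trend removal, removal of mitochondrial genes, thinning to the smallest total and leaving out each library. In simulated counts of 26665 genes for this comparison, 100 genes were changed by a log2 fold of 0.25 and 100 by 1. By edgeR, 61% and 100% of these had an unadjusted p under 0.05 with the right sign, as did 5.21% of unchanged genes in either direction. An adjusted p under 0.05 was reached by 12% and 95% of the changed genes, and by 57 unchanged genes.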

Additional observations from a re-analysis of the deposited data

Results flagged for a closer look

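In 5 of 74 sets of 4 values, 1 library stood further from the rest than Dixon's 95% limit, where about 3.7 are expected by chance. Homer1 was at 183 CPM in HipR3, while the other DHEA libraries lay between 160 and 162 (gap over range 0.930). Nlgn3 was at 75.0 CPM in HipR10, beside 70.1 to 70.6 in the other sesame oil libraries (0.886). Shank1 was at 546 CPM in HipR16, beside 479 to 485 (0.905). The FPKM ratio of Camk2a to Camk2b was 3.90 in HipR16, beside 3.42 to 3.50 in the other sesame oil libraries (0.840). On the first component of all genes, HipR9 scored −3.62, beside −10.0 to −9.95 in the other sesame oil libraries (0.985).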

How the results depend on the processing

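Over 19 alternatives, 1 of them (leaving out HipR3 and HipR4 together) chosen after seeing the data, 6 to 10 of the 43 genes were lower at an unadjusted p under 0.05. None was higher, except Homer2 without HipR9 and without HipR11 (0 to 1 when single libraries were left out). Dbn1, Shank2, Baiap2, Synpo and Nlgn3 were called lower in all 19. At an adjusted p under 0.05, counts over all genes were 153 by DESeq2, 4 with robust moderation, 1 without HipR3 and HipR4 and 0 to 93 with single libraries left out (93 without HipR7), and counts of members were 5, 1, 0 and 0 to 2. At a 2-fold change, 442 genes became 164 (DESeq2), 284 (at least 10 counts), 62 (filterByExpr), and 1 and 48 (limma on log2(FPKM + 1) and log2(FPKM + 0.1)). Of the 103 other pathway genes, 5 were higher by DESeq2, with either count filter and after GC-trend removal, 3 in both limma fits, 1 without HipR3 and HipR4 and 4 to 12 with single libraries left out. Lower were 15 in both limma fits, 4 after GC-trend removal and 3 to 10 with single libraries left out. The members' median log2 fold change was −0.0519 and −0.0520 in the limma fits, −0.0657 without HipR3 and HipR4 and −0.0523 to 0.0078 with single libraries left out, while all genes called numbered 1786 to 3667. The sign changed under at least 1 alternative for 22 of the 43 genes, none of them among the 8 called, all with log2 fold changes of at most 0.0939 in size (Dlg1 in 14 alternatives, Camk2g in 7, Dlg3 in 6). Among the members given in full these were Camk2a (−0.0031 in both limma fits, −0.0117 without HipR3 and HipR4, and −0.0124 to 0.0497 with single libraries left out, negative without HipR4 and without HipR5), Nrgn (0.0152 after GC-trend removal and −0.0764 to 0.0083 with single libraries left out, positive without HipR7 and without HipR11), Dlg4 (−0.0804 to 0.0078, positive without HipR11), Cfl1 (−0.0592 without HipR3 and HipR4) and the log2 difference of the Dlg4 to Dlg1 FPKM ratio (−0.112 to 0.000197 with single libraries left out). The causes were not tested. No paired analysis was possible because the labels give no number shared between groups that ties libraries to each other. With 4 libraries a group, changes near a log2 fold of 0.25 were detectable only in part, so a member that did not pass may still differ.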
